A study of Mus musculus with 7 samples.

Results

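Mast cells were followed in interscapular brown adipose tissue, a thermogenic fat depot, through 9 of the 53715 genes in a deposited count table. The genes are Cpa3, Mcpt4, Cma1, Tpsb2, Tpsab1, Kit, Fcer1a, Ms4a2 and Hdc. They were chosen by role as mast cell genes and by their raw counts in these same KO and WT libraries, so their difference between the genotypes is described here and not tested. The tissue came from male C57BL/6J mice at 10 weeks of age. The KO mice (PGAM5 KO in the labels) lack PGAM5, a protein phosphatase of mitochondria, and the WT mice are wild-type. The labels do not give the allele, and each library is one individual per the study's design. The table used here holds KO 1 to KO 3 and WT 1 to WT 3, so the groups were 3 and 3 libraries, and KO 4 was not analysed here.

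Mast cells are resident leukocytes of connective tissue that mature from blood-borne progenitors under the cytokine stem cell factor, which binds the receptor Kit. They store histamine, which Hdc makes, and large amounts of proteases bound to the proteoglycan serglycin in their granules. When antigen links IgE held by the high-affinity receptor, whose alpha and beta chains are encoded by Fcer1a and Ms4a2, the granules are released. Mouse mast cells of connective tissue are known for Mcpt4, Cma1, Cpa3 and Tpsb2, and those of mucosa for Mcpt1 and Mcpt2.

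Libraries held 18952348 to 21826942 counts in KO and 18034204 to 33617762 counts in WT. KO 3 and WT 2 stood apart from the other 4 libraries on the first principal component (66.8 and -65.0, against -13.0 to 8.23). They also had the lowest and the highest share of counts from the mitochondrial genome, 19.7% in KO 3 and 43.0% in WT 2. The labels were checked on Pgam5 itself: 1, 3 and 11 counts were found in KO 1 to KO 3, against 167, 122 and 186 counts in WT 1 to WT 3.

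GATA factors, among them GATA2, are known regulators of mast cell genes, although their part in these data was not tested. For 3 granule protease genes with higher mean levels in KO, the windows around the starts are shown. Each is a 300-base window from RefSeq (build GRCm38.p6, with all 3 genes on the minus strand), at chr3:20242132-20242431 for Cpa3, chr14:56062261-56062560 for Mcpt4 and chr14:55944626-55944925 for Cma1. Capitals mark a match to a GATA motif.
Cpa3: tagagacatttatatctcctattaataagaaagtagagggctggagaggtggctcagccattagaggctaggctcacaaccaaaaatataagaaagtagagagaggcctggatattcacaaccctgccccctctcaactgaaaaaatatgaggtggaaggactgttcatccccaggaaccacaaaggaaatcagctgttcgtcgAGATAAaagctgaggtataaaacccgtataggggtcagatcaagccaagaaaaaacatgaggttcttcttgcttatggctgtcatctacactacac
Mcpt4: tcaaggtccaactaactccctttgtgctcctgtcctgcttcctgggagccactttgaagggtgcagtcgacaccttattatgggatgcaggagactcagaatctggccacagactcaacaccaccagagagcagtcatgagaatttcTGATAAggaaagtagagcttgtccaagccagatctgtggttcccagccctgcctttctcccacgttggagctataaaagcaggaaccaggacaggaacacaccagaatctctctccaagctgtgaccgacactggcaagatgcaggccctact
Cma1: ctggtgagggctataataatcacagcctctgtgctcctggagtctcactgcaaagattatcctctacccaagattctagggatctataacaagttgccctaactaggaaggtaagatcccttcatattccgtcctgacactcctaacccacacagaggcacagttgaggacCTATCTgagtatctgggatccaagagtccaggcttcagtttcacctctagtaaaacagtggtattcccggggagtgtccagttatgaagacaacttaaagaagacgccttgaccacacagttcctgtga
AGATAA was searched on both strands, as was TGATAA. The forms ending in G, which are AGATAG on one hand and TGATAG on the other, were searched too, and no matches overlapped in the members' windows. The matches lie at bases 205 to 210 in Cpa3, 148 to 153 in Mcpt4 and, read on the other strand, 172 to 177 in Cma1, counted from 1 at the 5′ end. A match was present in 6 of the 7 members that have a window, counted per gene, and in none of the windows of Kit. Counted per window, 29.8% of all 32851 windows of this length held a match. Ms4a2 had 3 matches, and 1.76% of all windows had 3 or more. Tpsb2 and Tpsab1 had no entry.

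All 4 granule protease genes with enough counts had higher mean levels in KO, by 2.47 to 4.82 times. Tpsb2 (ENSMUSG00000033825.9, chr17:25366305-25369098, mm10, as all gene positions here) encodes a tryptase, a trypsin-like protease of mast cell granules. It had 86, 54 and 22 counts in KO 1 to KO 3, against 13, 6 and 20 counts in WT 1 to WT 3. Scaled to library size with TMM factors, this was 3.91, 2.32 and 1.07 CPM (library-scaled counts) in KO, against 0.525, 0.400 and 0.589 CPM in WT. The groups did not overlap, and KO 1 was highest and KO 3 lowest among the KO. The group means were 2.43 ± 1.42 CPM in KO and 0.505 ± 0.0958 CPM in WT (SD, n = 3 each). By edgeR, KO over WT was 2.23 on the log2 scale (SE 0.53).

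Cpa3 (ENSMUSG00000001865.2, chr3:20215620-20242181) encodes the mast cell carboxypeptidase, which trims proteins from their carboxyl end. It had 70, 47 and 29 counts in KO 1 to KO 3, against 18, 13 and 37 counts in WT 1 to WT 3, or 3.18, 2.02 and 1.42 CPM in KO, against 0.727, 0.867 and 1.09 CPM in WT. The groups did not overlap in CPM, although KO 3 had fewer raw counts than WT 3, the deepest library. The means were 2.21 ± 0.898 CPM in KO and 0.894 ± 0.182 CPM in WT (SD, n = 3 each), a log2 fold change of 1.29 (SE 0.43). A microRNA gene on the same strand, Mir7007, lies within Cpa3 and had 18 counts in all against 214 for Cpa3.

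Mcpt4 (ENSMUSG00000061068.7, chr14:56059629-56062313) and Cma1 (ENSMUSG00000022225.7, chr14:55941451-55944675) encode chymases, chymotrypsin-like proteases, and lie 115 kb apart. Mcpt4 had 111, 62 and 31 counts in KO 1 to KO 3 (5.05, 2.66 and 1.51 CPM), against 20, 24 and 28 counts in WT 1 to WT 3 (0.808, 1.60 and 0.824 CPM). The groups overlapped, since WT 2 lay above KO 3. The log2 fold change was 1.55 (SE 0.51). Cma1 had 70, 86 and 13 counts in KO 1 to KO 3 (3.18, 3.69 and 0.635 CPM), against 6, 21 and 19 counts in WT 1 to WT 3 (0.242, 1.40 and 0.559 CPM). Here too WT 2 lay above KO 3, and the spread was the widest of the tested members, with a log2 fold change of 1.85 (SE 0.74).

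Tpsab1 encodes a second tryptase, 20.7 kb from Tpsb2 on chromosome 17, which C57BL/6 mice are known not to make because of a splice-site change. It had 4, 0 and 0 counts in KO 1 to KO 3 and 0, 3 and 0 counts in WT 1 to WT 3, and was not tested. Transcripts of Tpsb2, Tpsab1 and Cpa3 shared no stretch of 50 bases with transcripts of other genes. Mcpt4 shared 5.48% of such stretches, all of them with Cma2, which had 0 counts in every library, and Cma1 shared 5.38%, all of them with the predicted gene Gm48934.

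Summed over the 5 protease genes, KO 1 to KO 3 had 341, 249 and 95 counts, against 57, 67 and 104 counts in WT 1 to WT 3. The sums were 15.5, 10.7 and 4.64 CPM in KO, against 2.30, 4.47 and 3.06 CPM in WT. KO 1 and KO 2 stood well above all WT libraries, whereas KO 3 was only 1.04 times WT 2. The 95% Poisson intervals of these sums cover counting error only. They ran from 3.76 to 5.67 CPM in KO 3 and from 3.46 to 5.68 CPM in WT 2. With TMM scaling, those libraries cannot be told apart at this depth. KO averaged 10.3 ± 5.44 CPM and WT 3.28 ± 1.10 CPM (SD, n = 3 each). KO libraries differed among themselves by up to 3.34 times. In bulk tissue, more mast cells and more protease RNA per mast cell cannot be told apart.

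**Figure D1:**
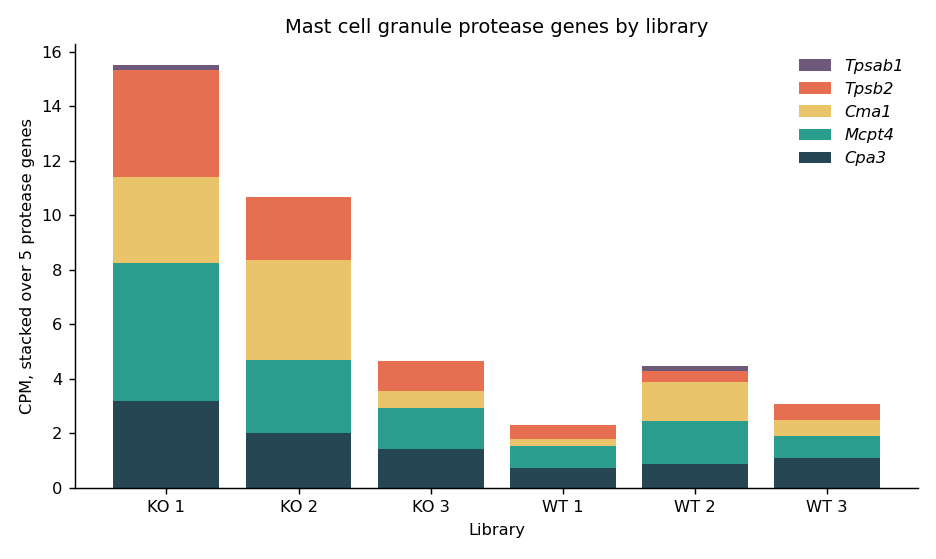
Summed CPM (vertical axis, from 0) of the 5 granule protease genes in each library, with 1 coloured segment per gene. KO 1 and KO 2 reach 15.5 and 10.7 CPM, whereas KO 3 at 4.64 CPM is close to WT 2 at 4.47 CPM.

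The mixture of proteases also varied between libraries. Cma1 made up 20.5%, 34.5% and 13.7% of the protease counts in KO 1 to KO 3, against 10.5%, 31.3% and 18.3% in WT 1 to WT 3. The shares of the groups overlapped, and KO 2 and WT 2 had the highest Cma1 share of their groups (95% Wilson intervals 28.9% to 40.6% in KO 2 and 21.5% to 43.2% in WT 2). Tpsb2 made up 25.2%, 21.7% and 23.2% in KO, against 22.8%, 8.96% and 19.2% in WT. In WT 2 its share rested on 6 counts (Wilson interval 4.17% to 18.2%). Mcpt4 held 24.9% to 32.6% in KO and 26.9% to 35.8% in WT.

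Of the alpha and beta chains of the IgE receptor few reads were counted. Fcer1g, a further gene of this receptor that was listed with the other receptors, had 582 counts over all libraries. It was tested, with a log2 fold change of 0.16 (SE 0.35) and overlap between the groups. Fcer1a, the IgE-binding alpha chain, had 8, 4 and 2 counts in KO 1 to KO 3, against 0, 0 and 3 counts in WT 1 to WT 3. Its groups did not overlap in CPM, but KO 3 (0.0977 CPM) lay barely above WT 3 (0.0883 CPM). Ms4a2, the signalling beta chain, had 1, 4 and 0 counts in KO and 2, 0 and 0 counts in WT. Both were under the count filter and were not tested. A count of 0 allows up to 0.0883 to 0.2001 TMM-scaled CPM, depending on the library, so differences of this size were not detectable. Ms4a2, a defining marker of mast cells and basophils, was at 0 in 3 of the 6 libraries.

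Kit and Hdc, which other cell types also express, were more abundant in reads and did not separate the genotypes. Kit (chr5:75574916-75656722), the receptor for stem cell factor, had 230, 364 and 388 counts in KO 1 to KO 3 (10.5, 15.6 and 19.0 CPM), against 359, 109 and 273 counts in WT 1 to WT 3 (14.5, 7.27 and 8.03 CPM). WT 1 lay above KO 1, and KO 3, the KO library with the least protease, was the highest of all. The log2 fold change was 0.59 (SE 0.31). Hdc (chr2:126593667-126619299), histidine decarboxylase, had 127, 155 and 139 counts in KO 1 to KO 3 (5.78, 6.65 and 6.79 CPM), against 161, 81 and 114 counts in WT 1 to WT 3 (6.50, 5.40 and 3.35 CPM). Its groups overlapped, with WT 1 above KO 1, and its log2 fold change was 0.34 (SE 0.29).

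**Figure D2:**
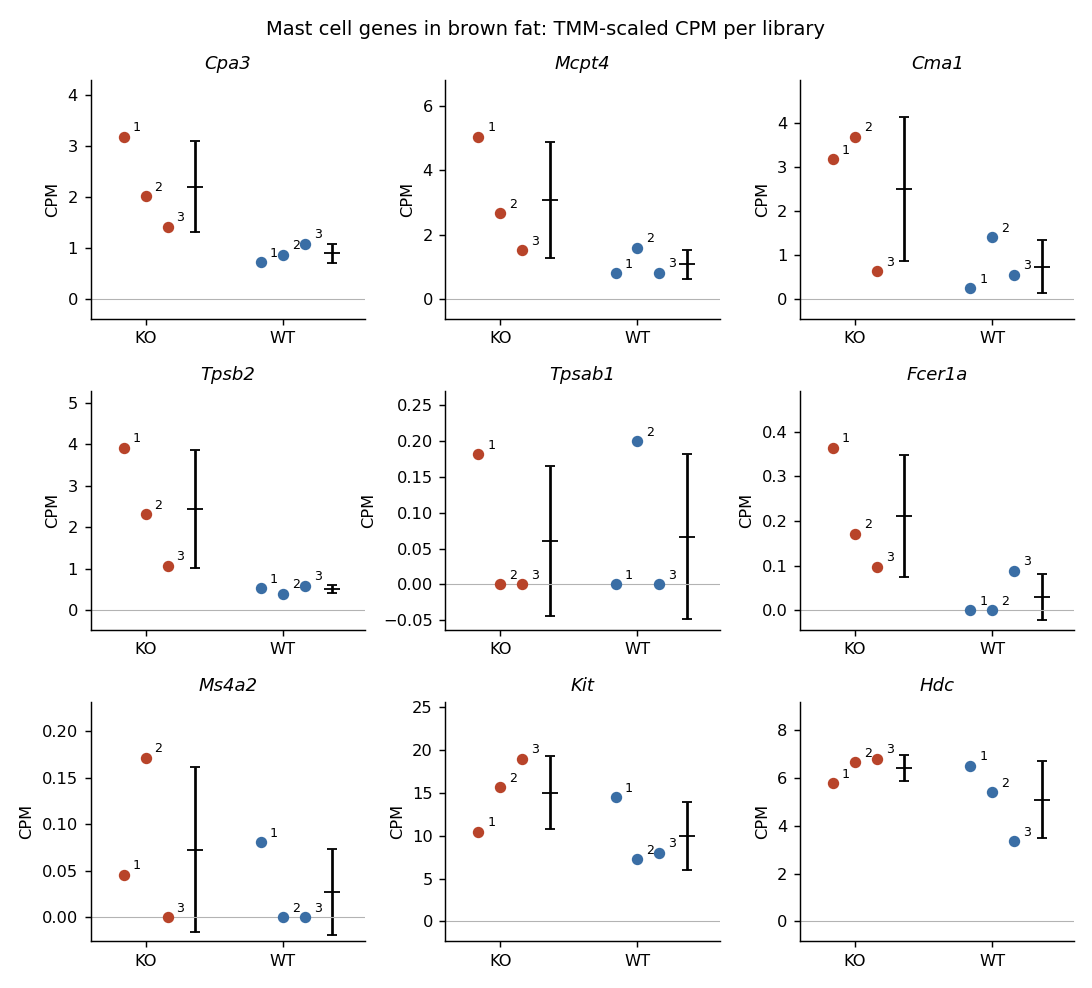
TMM-scaled CPM (vertical axis, its range differing by gene) of the 9 mast cell genes in each library, with KO left of WT in every panel. Points carry the replicate number and black bars give the mean ± SD (n = 3). Tpsb2 and Cpa3 separate the groups, whereas Kit and Hdc overlap. Tpsab1, Fcer1a and Ms4a2 stay under 0.4 CPM, and Fcer1a separates only narrowly, by 0.0977 CPM in KO 3 against 0.0883 CPM in WT 3.

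Of the 9 members, 6 passed the count filter and 3 did not. Among the 6, 2 (Tpsb2 and Cpa3) had KO above WT with no overlap, as had 10.1% of the 15123 tested genes, and 6 had a log2 fold change above 0, as had 49.8%. Their median log2 fold change was 1.42, against -0.0019 over all tested genes. The members were chosen with this contrast in view, so nothing is read from these counts. Without both WT 2 and KO 3 the median was 1.87, and the log2 fold changes were 2.47 for Tpsb2, 1.50 for Cpa3, 2.23 for Mcpt4 and 3.05 for Cma1. Without KO 1 the median was 0.97, with 0.94 for Cpa3, 0.99 for Mcpt4, 1.63 for Cma1 and 1.73 for Tpsb2. Kit was at 0.97 without WT 1 and at 0.22 when both WT 2 and KO 3 were left out, and Hdc at 0.56 without WT 1 and 0.10 without WT 3.

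Levels were also taken per kilobase of exon, with all annotated exons of a gene merged. Merged lengths were 8911 bases for Kit and 6389 for Hdc, against 1108 for Mcpt4. The order of genes depends on the length used, and no other length was tried. Mcpt4 was by this measure the most abundant member in KO, at 2.77 ± 1.63 CPM per kilobase (SD, n = 3). Cma1 (2.30 ± 1.50), Kit (1.68 ± 0.480), Tpsb2 (1.53 ± 0.892), and Cpa3 (1.45 ± 0.592) followed in KO, in the same unit, and then Hdc with libraries at 0.904 to 1.06. In WT the order began with Kit at 1.12 ± 0.446 and Mcpt4 at 0.973 ± 0.409 CPM per kilobase, then Hdc (0.796 ± 0.250), Cma1 (0.673 ± 0.549), Cpa3 (0.590 ± 0.120) and Tpsb2 (0.317 ± 0.0601). Among these 6 genes in KO, the ranges of all neighbours overlapped. In WT the same held except for Cpa3 and Tpsb2, whose ranges did not overlap (0.479 to 0.718 and 0.251 to 0.369 CPM per kilobase). Fcer1a stood at 0.211 ± 0.138 in KO and 0.0295 ± 0.0511 in WT, and Tpsab1 and Ms4a2 stayed under 0.1 CPM per kilobase in every library.

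The members did not share a single pattern across the 6 libraries. As a measure of likeness, log2 CPM was centred on each gene's own mean and compared by root mean square distance over the 6 libraries, a smaller value meaning more alike. Hdc and Kit were the closest pair (0.34), followed by Cpa3 and Mcpt4 (0.39) and by Cpa3 and Tpsb2 (0.46). Kit and Cma1 were the farthest apart (1.41). The averaged pattern of the 6 tested members was highest in KO 1 (0.97) and KO 2 (0.76), at 0.03 in KO 3, and at -0.68, -0.39 and -0.70 in WT 1 to WT 3.

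Ranked by their distance to that averaged pattern among 11661 other named genes with a mean of at least 1 CPM, the nearest 8 were Gbp3, Arhgap45, Pik3cd, Cmbl, Aldh3b2, Fam198b, Klhl36 and Calhm6 (0.22 to 0.28). Their resemblance fixes their direction, so it was not tested. Gbp3, an interferon-inducible guanylate-binding protein, had 522, 675 and 319 counts in KO 1 to KO 3, against 312, 178 and 330 counts in WT 1 to WT 3, a mean of 22.8 ± 6.74 CPM in KO and 11.4 ± 1.50 CPM in WT (SD, n = 3 each). Pik3cd, the leukocyte catalytic subunit of PI3-kinase, had 126, 117 and 81 counts in KO, against 64, 48 and 88 counts in WT.

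Genes of the mast cell programme outside the members were taken from 6 lists of 68 genes, of which 49 passed the count filter. By edgeR's quasi-likelihood test, adjusted over all tested genes, 0 were higher and 0 lower in KO at an adjusted p under 0.05, where 0.0198% of all genes were higher and 0.0397% lower. DESeq2 also called 0 of them. DESeq2 called 0.566% of all genes higher and 0.553% lower. Without adjustment, edgeR had 6 higher and 2 lower at 0.05, which is 12.2% and 4.08% of those tested, against 6.3% and 5.49% of all genes. Groups did not overlap for 7 with KO higher and 1 with KO lower, 14.3% and 2.04%, against 10.1% and 9.39% of all genes. The median log2 fold change of the 49 was 0.20. Some of these genes were far more abundant than the proteases, such as Bhlhe40 (mean of 90.5 CPM) and Stat5a (64.2 CPM), against 2.08 CPM for Mcpt4. Which cells their reads came from cannot be told in bulk tissue, so these shares are not readings of mast cells alone.

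Among other granule genes, the mucosal proteases Mcpt1 and Mcpt2 were at or near 0. Mcpt1 had 0 counts in every library, and Mcpt2 had 1 count in all. The further protease genes Mcpt9, Cma2 and Ctsg also had 0 counts in every library. Srgn, the serglycin core protein that many leukocytes and endothelial cells also make, was at 29.3 ± 4.66 CPM in KO and 28.5 ± 4.20 CPM in WT (SD, n = 3 each), log2 0.04 (SE 0.18). Ndst2, a sulfotransferase of heparin synthesis, had a log2 fold change of 0.15 (SE 0.21). Of 10 genes in this list 3 were tested, 3 were positive and 0 passed.

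Among receptors, 6 of 8 tested genes were positive and 0 passed. Csf2rb, the beta chain shared by the receptors for interleukin 3, interleukin 5 and GM-CSF, had 236, 270 and 317 counts in KO 1 to KO 3, against 170, 100 and 240 counts in WT 1 to WT 3. In CPM this was 10.7, 11.6 and 15.5 in KO, against 6.87, 6.67 and 7.06 in WT, with no overlap. On the log2 scale KO differed from WT by 0.87 (SE 0.21), short of the threshold (edgeR adjusted p = 0.307). The related Csf2rb2 had 0.48 (SE 0.45), and Il4ra, a receptor chain for interleukin 4 and interleukin 13, had -0.12 (SE 0.32). Mrgprb2, the receptor for cationic peptides known from connective tissue mast cells, had 4, 6 and 0 counts in KO and 0, 1 and 8 counts in WT. The related Mrgprb1 had 13, 20 and 2 counts in KO, against 1, 4 and 4 counts in WT. For both genes the groups overlapped, and neither was tested. C5ar1, like Il4ra a tested receptor gene with a negative value, had -0.77 (SE 0.52), also with overlap.

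In mediator synthesis, 6 of 6 tested genes were positive and 0 passed. Hpgds, haematopoietic prostaglandin D synthase, had 72, 42 and 65 counts in KO 1 to KO 3, against 38, 13 and 22 counts in WT 1 to WT 3. The groups did not overlap in CPM (3.27, 1.80 and 3.18 in KO, against 1.54, 0.867 and 0.647 in WT), and the log2 fold change was 1.43 (SE 0.44, edgeR adjusted p = 0.350). Slc18a2, the vesicular transporter that loads histamine and serotonin into granules, was at 1.95 ± 0.343 CPM in KO and 1.01 ± 0.317 CPM in WT (SD, n = 3 each). Its log2 fold change was 0.93 (SE 0.40, edgeR adjusted p = 0.419), also with no overlap. Ltc4s and Ptgs1, enzymes of leukotriene and prostaglandin synthesis, stood at 0.12 (SE 0.37) and 0.11 (SE 0.31) on the log2 scale.

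Of 16 genes of receptor signalling, all were tested, 12 were positive and 0 passed. The adaptor gene Lat, which T cells also use, was at 1.04 ± 0.316 CPM in KO and 0.443 ± 0.0988 CPM in WT (SD, n = 3 each). Its log2 fold change was 1.20 (SE 0.48, edgeR adjusted p = 0.404). Stat5a, which carries signals of Kit and cytokine receptors, was at 79.5 ± 20.5 CPM in KO and 48.9 ± 16.9 CPM in WT (SD, n = 3 each), log2 0.70 (SE 0.28), and Plcg1 had 0.38 (SE 0.17). These 3 genes did not overlap between the groups. When both WT 2 and KO 3 were left out, Stat5a was at 0.21 and Plcg1 at 0.21, while Lat was at 1.26. Of 10 transcription factors 9 were tested, 9 were positive and 0 passed, with 0.42 (SE 0.53) for Bhlhe40 and 0.31 (SE 0.21) for Stat3 as the most abundant in CPM. Bhlhe40 was at 0.03 without WT 2, at 1.03 without WT 3 and at -0.26 without KO 3. Leaving out both WT 2 and KO 3 gave -0.64 for Bhlhe40 and 0.06 for Stat3. Gata2 was at 12.6 ± 2.17 CPM in KO and 9.32 ± 4.43 CPM in WT (SD, n = 3 each), with overlap. Its log2 fold change was 0.42 (SE 0.35, edgeR adjusted p = 0.610). Of 8 exocytosis genes 7 were tested, 6 were negative and 0 passed. Sytl2, a Rab27 effector, stood at 1.23 (SE 0.48) and Snap23, a membrane fusion protein, at -0.50 (SE 0.21), both with no overlap, and Stxbp2 at -0.01 (SE 0.15). Snap23 was at -0.29 without KO 3. Rab27b, under the count filter, had 1, 0 and 3 counts in KO, against 8, 4 and 6 counts in WT.

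**Figure D3:**
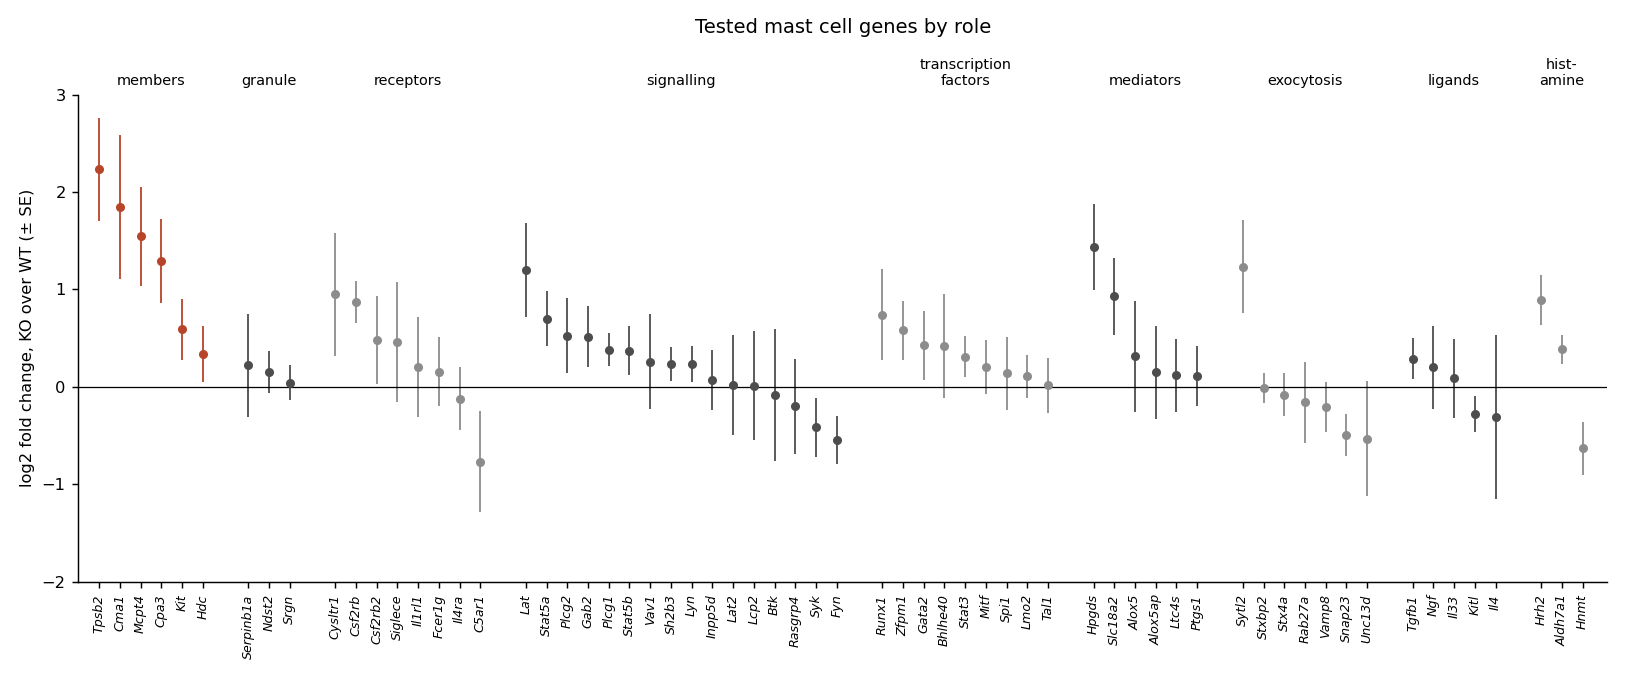
Log2 fold change, KO over WT, with its SE from edgeR (vertical axis), for the tested genes of each role (horizontal axis, genes ordered by value within a role). The members, in red, run from 2.23 for Tpsb2 to 0.34 for Hdc, and no gene shown in grey passed an adjusted p of 0.05.

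On the side of the tissue, Kitl, the stem cell factor gene, was at 74.9 ± 14.0 CPM in KO and 90.8 ± 10.9 CPM in WT (SD, n = 3 each). Its log2 fold change was -0.28 (SE 0.19, edgeR adjusted p = 0.538). The groups overlapped, and Tgfb1 had a log2 fold change of 0.29 (SE 0.21). Of 9 growth factor and cytokine genes 5 were tested and 0 passed, and Il3, Il9 and Il13 had 0 counts in every library. Of 7 genes that sense or break down histamine 3 were tested, and 0 passed. Hrh2, a histamine receptor coupled to cAMP, had 131, 108 and 108 counts in KO 1 to KO 3, against 70, 41 and 101 counts in WT 1 to WT 3. In CPM, 5.29 ± 0.661 in KO and 2.85 ± 0.120 in WT (SD, n = 3 each) did not overlap. KO over WT was 0.89 in log2 (SE 0.26), with an edgeR adjusted p = 0.332. Hnmt, which methylates histamine, was at 25.7 ± 5.86 CPM in KO and 39.9 ± 14.5 CPM in WT (SD, n = 3 each), log2 -0.63 (SE 0.27), and Aldh7a1, an aldehyde dehydrogenase, had 0.38 (SE 0.15), both with no overlap. Hnmt was at -0.30 without WT 2 and at -0.12 with KO 3 left out as well.

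Markers of other cell types were read beside the protease genes, and 0 of the 64 tested passed in edgeR. Without adjustment edgeR had 6 higher and 2 lower at 0.05, which is 9.38% and 3.12% of them, against 6.3% and 5.49% of all genes. DESeq2 called 3 higher and 1 lower, where it called 0.566% and 0.553% of all genes. Those higher were Ighm (log2 1.31 in edgeR, DESeq2 adjusted p = 0.0407), Ucp1 (1.06, 0.0093) and Elovl3 (2.99, 0.0400), and that lower was S100a9 (-2.45, 0.0185). Leaving out both WT 2 and KO 3 gave log2 fold changes of 0.75 for Ighm, 0.67 for Ucp1, 1.51 for Elovl3 and -1.39 for S100a9. Basophils share Fcer1a, Ms4a2 and Hdc with mast cells, but their protease Mcpt8 had 0 counts in every library. The 5 basophil markers summed to 3.78 to 6.05 CPM in KO and 2.85 to 4.00 CPM in WT, nearly all from Itga2b and Il3ra, and 2 of 2 tested genes were positive. Eosinophil markers summed to 0.244 to 0.644 CPM in KO and 0.202 to 1.27 CPM in WT, with 5 of 8 at 0 in every library. Neutrophil markers summed to 0.831 to 2.58 CPM in KO and 3.31 to 6.94 CPM in WT, and all 3 tested were negative. The sums overlapped without S100a9, at 1.36, 2.15 and 0.635 CPM in KO and 1.86, 2.60 and 2.53 CPM in WT. S100a9, a calcium-binding protein of neutrophils, had 14, 10 and 4 counts in KO, against 36, 65 and 46 counts in WT.

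Lymphocyte markers summed to 16.7 to 21.3 CPM in KO and 7.71 to 12.1 CPM in WT, with 8 of 8 tested genes positive. The immunoglobulin gene Ighm was the most abundant of them. Without it the sums were 10.4, 9.96 and 6.35 CPM in KO 1 to KO 3, against 4.50 to 6.95 CPM in WT. The groups then overlapped, with KO 3 the lowest KO library, whereas KO 3 was the highest, at 21.3 CPM, with Ighm included. Besides Ighm, Nkg7 (41, 40 and 7 counts in KO, against 6, 2 and 8 in WT) had KO above WT in CPM with no overlap. So had Klrb1c (4, 16 and 5 counts in KO, against 4, 0 and 2 in WT). Both were under the count filter, and the remaining markers of the list overlapped. Macrophage markers overlapped, at 58.6 to 85.8 CPM in KO and 55.9 to 89.5 CPM in WT, with 4 of 10 tested genes positive. Fibroblast markers overlapped as well (621 to 690 CPM in KO, 550 to 662 CPM in WT, 5 of 8 positive), as did endothelial markers (412 to 859 CPM in KO, 360 to 602 CPM in WT, 8 of 8 positive). Brown adipocyte markers did not (6721 to 8765 CPM in KO, 5008 to 5784 CPM in WT, 4 of 8 positive), but without Ucp1 they did (2791 to 3609 CPM in KO, 2608 to 3790 CPM in WT). General adipocyte markers overlapped (9808 to 12362 CPM in KO, 10535 to 13740 CPM in WT, 3 of 7 positive).

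Markers of neighbouring tissues were also read. Skeletal muscle markers summed to 1.96, 34.5 and 3.62 CPM in KO 1 to KO 3. In WT 1 to WT 3 they summed to 7.96, 10.0 and 41.4 CPM, and 0 of 7 tested genes were positive. The keratinocyte genes Krt5, Krt14 and Dsg3 and the lymph node gene Ccl21a had 0 counts in every library. The skin list summed to 2.35 to 3.05 CPM in KO and 2.50 to 3.27 CPM in WT, nearly all from Krt10. The lymph node list summed to 0.928 to 1.73 CPM in KO and 1.53 to 2.13 CPM in WT. In it, Cxcl13 had 13, 14 and 2 counts in KO 1 to KO 3, against 17, 27 and 44 counts in WT 1 to WT 3. Its groups did not overlap in CPM, with KO lower (log2 -1.51, SE 0.65, edgeR adjusted p = 0.420). Melanocytes also use Kit. Their gene Tyr had 0 counts in every library, and their 6 markers summed to 1.59 to 3.08 CPM in KO and to at most 2.24 CPM in WT, of which Sox10, which Schwann cells share, was the most abundant. The part of lymphocyte, neutrophil and brown adipocyte levels in the protease difference was not tested.

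**Figure D4:**
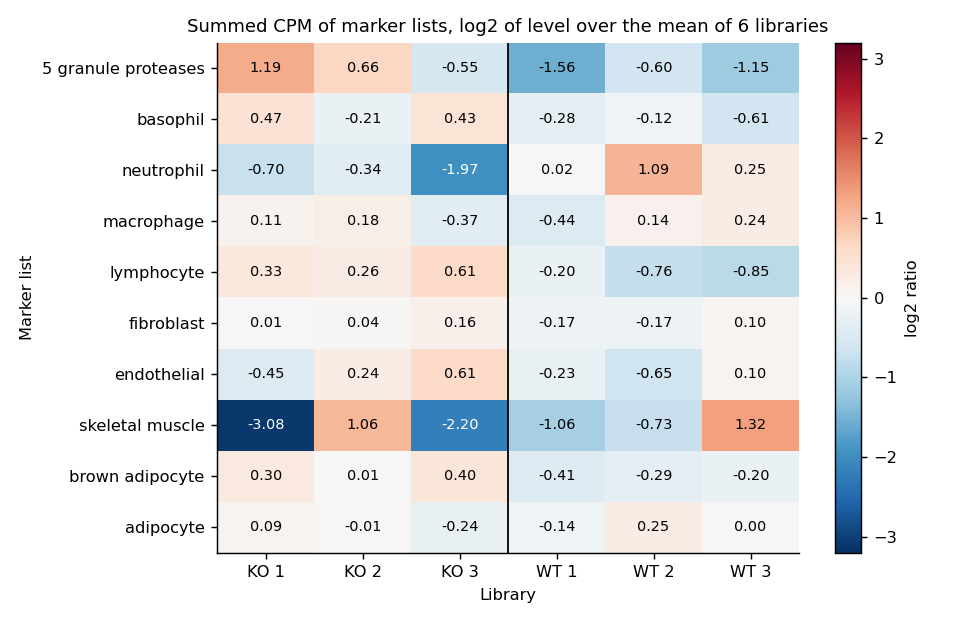
Summed CPM of the 5 granule proteases and of 9 marker lists, as log2 of each library's level over the mean of the 6 libraries (colour and printed value), with KO columns left of WT columns. KO 1 and KO 2 are the only libraries above the mean for the proteases, at 1.19 and 0.66, and KO 3 at -0.55 lies next to WT 2 at -0.60.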

How the data were processed

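Poly(A) RNA of brown fat was counted in 3 KO and 3 WT libraries. The authors deposited raw gene-level counts, without normalization. The submitters' processing notes name mm10 as the build, HISAT2 2.1.0, featureCounts 1.6.2 and DESeq2. For the annotation release and the strand setting, nothing is given in the sources used here. How reads of overlapping genes were assigned is therefore not known, and reads from stretches shared between copies could not be told apart. Among the members Mcpt4 shared the most, 5.48% of stretches of 50 bases.

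Of 53715 identifiers, 53620 had a symbol in the reference table. Lengths, merged over all annotated exons of a gene, came from GENCODE release M 21, on the same build. The filter, filterByExpr with a minimum count of 10 and a minimum total of 15, passed 15123 genes. KO was compared with WT by edgeR's quasi-likelihood test (edgeR 4.0.16, R 4.3.3) with TMM scaling, genotype as the only term, and Benjamini-Hochberg adjustment over all tested genes at 0.05. An SE is the log2 fold change divided by the square root of its F statistic. Log2 CPM used a prior count of 2. The test was tested on simulated data. Alternatives included DESeq2 1.42.0, other filters and scalings, a replicate block and left-out libraries. KO 4 was not analysed here, although 4 KO samples are in the labels. Nothing says more of the replicates than that they are individuals.

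The members and lists were chosen with earlier results of these data known. Named were Pgam5, the members and, of each list, genes past the threshold or the 2 of highest mean CPM. Of the mast cell lists, genes with no overlap and a mean of at least 0.5 CPM were named too, as were the 8 genes nearest the members' pattern. Other genes were chosen after their values were seen, mostly for being at or near 0. Floors and intervals cover counting error only. Python 3.11.15, pandas 2.3.3 and matplotlib 3.10.9 made tables and figures.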

Additional observations from a re-analysis of the deposited data

How the results depend on the processing

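Summed over all 9 members, levels were 32.2, 33.3 and 30.5 CPM in KO, against 23.4, 17.1 and 14.5 CPM in WT. Kit and Hdc made up 1403 of the 2107 counts in KO and 1097 of the 1330 in WT. The signs of the 6 tested members' log2 fold changes held under every alternative that gave a value. So did those of the log2 ratios of the summed proteases and of the summed members. The median over tested members was 0.47 with the stricter filter, which left 2 of them (Kit and Hdc), and 1.87 without both WT 2 and KO 3. With 1 library left out it ran from 0.97 to 1.70. The log2 ratio of the summed proteases was 2.29 without both WT 2 and KO 3, and scaling by DESeq2 size factors or without mitochondrial genes left KO 3 above WT 2 (4.64 and 4.51 CPM, 6.84 and 6.54 CPM). Of the other mast cell genes 0 were called, except 2 higher with no filter, Csf2rb and Stat5a (edgeR adjusted p = 0.0408 and 0.0348). The adjusted p of Csf2rb ran from 0.0408 to 0.652 over the alternatives and that of Stat5a from 0.0348 to 0.788. The signs of Bhlhe40, Srgn, Ndst2, Il4ra, Ltc4s, Ptgs1 and Stxbp2, none of them called, turned under at least 1 alternative. Over all genes 3 were higher and 6 lower. DESeq2 called 85 and 83, edgeR with no filter 330 and 333, and edgeR without both WT 2 and KO 3 14 and 13. With 1 library left out, higher calls ran from 0 to 9 and lower calls from 0 to 9. The replicate block gave 1 higher call and ended that of Pgam5 (log2 -4.95, edgeR adjusted p = 0.0655). Same-numbered samples share only a number (correlations of deviations -0.114, 0.102 and 0.0909). With 1 library left out, Pgam5 ran from -6.18 to -4.35 (edgeR adjusted p 0.0157 to 0.165), and its call ended without WT 1, WT 3, KO 1 or KO 2. Marker sums without the most abundant gene were chosen after seeing the data. The causes were not tested. Low counts limit what can be read of Tpsab1, Fcer1a and Ms4a2, which had 7, 17 and 7 counts over the 6 libraries. C57BL/6 mice are in any case known not to make the Tpsab1 tryptase.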
